A study of Mus musculus and Bos taurus with 2 samples.

Results

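The 10 small RNA pathway genes examined here in the transcript models of cleaving mouse and bovine embryos were Dicer1, Ago2, Piwil1, Piwil2, Piwil3, Piwil4, Mael, Mov10, Mov10l1 and Tdrd5. A model counted for a gene when it carried the gene's name, without regard to case, and lay on the gene's strand sharing exon sequence or a splice junction with it. By this rule 6 of the 10 genes were assembled in mouse, with 12 of 42028 models, and 9 of 10 in bovine, with 34 of 40819 models. The mouse genes were 6 of the 14090 genes with such a model, and the bovine genes 9 of 13374.

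The models were assembled from nanopore long-read cDNA of polyadenylated RNA, from embryos at the time when their own genome is being activated. Oocytes of superovulated Slc:ICR mice were fertilized in vitro, and the embryos were kept in KSOM medium until the late 2-cell stage at 36 h. Bovine oocytes came from Japanese Black or Japanese Black × Holstein F1 animals, were matured in vitro and inseminated with sperm of a Japanese Black bull, and embryos of 8 to 16 cells were collected at 72 h. Each species had 1 library from about 200 pooled embryos, and neither carried a genetic change or a drug treatment in the labels. With no replicate in either species, values stand without an error and none was tested. Species, stage, hours, breed, sequencing flow cell and reference annotation differ together between the libraries and cannot be told apart. The deposited models carry no read count, so their depth is unknown. A gene with no model is called not assembled, which does not show it silent. In pooled embryos, fewer cells holding a transcript and less RNA per cell cannot be told apart.

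Small RNAs guide Argonaute proteins to matching transcripts. Dicer cuts double-stranded RNA into microRNAs and small interfering RNAs, which Argonaute proteins such as AGO2 carry, and in mouse oocytes the small interfering RNAs are abundant and act on retrotransposon transcripts. PIWI proteins carry a separate class, the piRNAs, which are made from single-stranded precursors with the help of helicases, Tudor domain proteins and other germ granule proteins, and which silence transposons in the germ line.

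The sequences on which the splicing differences below turn are mouse exons on GRCm38 (mm10), read from GENCODE M21 transcripts on the minus strand. The first is Dicer1 exon 22 (chr12:104700365-104700520, coding, 156 bp), which the long mouse Dicer1 model skips. The second is Mael exon 5 (chr1:166234165-166234206, coding, 42 bp), which the mouse model and 2 of 3 full bovine models hold and the other bovine model lacks. In both, the exon is in capitals between 20 bases of its neighbours in the spliced transcript. The third is the stretch around a splice site inside Dicer1 exon 23 (chr12:104696305-104696354) that the short mouse model uses, with the last 2 intron bases of that model in capitals.
Dicer1 exon 22: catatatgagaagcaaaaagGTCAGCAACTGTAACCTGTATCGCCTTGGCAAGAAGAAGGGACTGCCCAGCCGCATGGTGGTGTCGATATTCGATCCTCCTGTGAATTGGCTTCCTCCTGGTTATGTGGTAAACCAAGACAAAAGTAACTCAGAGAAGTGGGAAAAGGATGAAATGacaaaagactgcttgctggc
Mael exon 5: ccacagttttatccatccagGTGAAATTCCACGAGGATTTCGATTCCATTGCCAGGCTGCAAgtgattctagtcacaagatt
Dicer1 exon 23 inner splice site: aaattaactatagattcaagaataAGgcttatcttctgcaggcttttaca

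Models per gene differed widely within the set. In mouse, Mov10l1 had 5 models, Dicer1 and Piwil2 had 2 each, and Ago2, Mael and Mov10 had 1 each. Piwil1, Piwil3, Piwil4 and Tdrd5 were not assembled on their own strand, and Piwil3 is not named in GENCODE M21. Of the other 9 genes, 6 had a model, beside 52.2% of all 21991 protein-coding genes of that annotation. In bovine, TDRD5 had 10 models, AGO2 and PIWIL2 had 5 each, MAEL 4, DICER1 and MOV10L1 3 each, MOV10 2, and PIWIL1 and PIWIL3 1 each. PIWIL4 was assembled in neither library. The genes assembled in bovine and not in mouse were Piwil1, Piwil3 and Tdrd5, and none was assembled in mouse alone. The share of all genes assembled in 1 library alone was not computed. The median over the assembled genes was 1.5 models in mouse and 3 in bovine, beside 2 over all genes with a model in either library.

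TDRD5 stood near the top of the bovine library, where 98.9% of genes with a model had fewer than 10. In mouse, 90% of genes had fewer models than the 5 of Mov10l1. Genes with at least 5 models numbered 1 of 6 in mouse (9.96% of all genes with a model) and 3 of 9 in bovine (13% of all). Exact matches to the intron chain of a reference transcript were held by Piwil2, Mael and Mov10 in mouse, 3 of 6 genes, where 72.5% of all genes with a model had one. In bovine AGO2, MAEL and TDRD5 held one, 3 of 9 genes, beside 65.5% of all. Of the 12 mouse models 4 were exact matches, 1 was contained in or contained a reference chain, and 7 shared a junction but had another structure. Of the 34 bovine models these numbers were 5, 8 and 20, and 1 model overlapped a reference in another way.

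**Figure D1:**
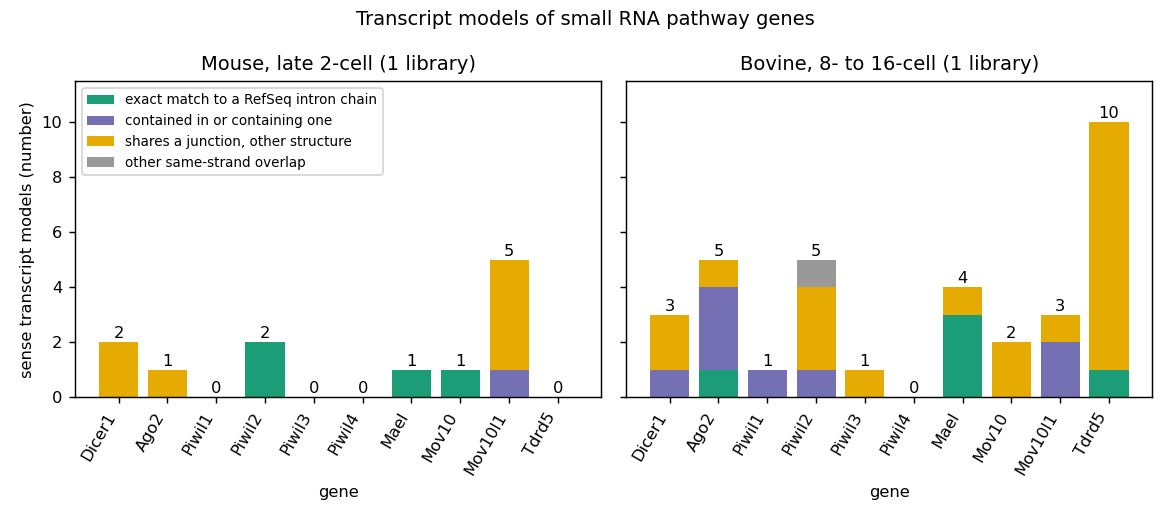
Number of sense transcript models (y axis) of each of the 10 genes (x axis) in the 1 mouse and the 1 bovine library, with bars split by relation to the reference transcript. TDRD5 in bovine has 10 models, 9 of which share a junction with the reference but differ in structure, and 4 mouse genes and 1 bovine gene have none.

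Dicer1, the nuclease that makes microRNAs and small interfering RNAs, was assembled in mouse from a start upstream of those in GENCODE M21. Both models began at position 104752892 of chromosome 12 on the minus strand, 940 bp upstream of the outermost GENCODE start at 104751952, and ended at 104691422. Their first exons, of 231 bp and 155 bp, overlapped no exon of GENCODE M21 or of the library's exact matches on that strand. The RefSeq transcript named as closest to both models was not read. Dicer1 was the only one of the 6 mouse genes with such a first exon, a feature of 17.2% of all mouse genes with a spliced model. The long model had 28 exons and 6205 bp. Its first exon was joined by an intron of 13813 bp to a 66-bp exon (104738783 to 104738848), which overlaps the start of an annotated transcript with a partial coding sequence, and from exon 4 of the model on it followed the annotated coding transcript up to exon 21.

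The long Dicer1 model then left out exon 22, printed above. An intron of 5257 bp (104697145 to 104702401) joined exons 21 and 23, both of whose splice sites are annotated while their pairing is not. The 156 bp of the skipped exon encode 52 codons, from codon 1341 to codon 1392 of 1906. Read from the annotated start codon, the model held 1854 codons and closed at the annotated stop codon, so the frame was kept. It contained 97.3% of the 5718 annotated coding bases. The short model had 6 exons and 1055 bp, with an intron of 56409 bp from the same upstream start to the inner site of exon 23. Of the 871 bp of exon 23 it kept 55, and it contained no annotated start codon. A shorter Dicer that begins at a repeat inside the gene is known from rodent oocytes, and no model of this library began inside Dicer1.

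Ago2 is the Argonaute that can itself cut its target RNA. Its single mouse model held only the 5′ portion of the gene (chr15, minus strand, 73134092 to 73177876), with 4 exons of 108, 196, 121 and 759 bp. Its start lay 7059 bp downstream of that of the coding transcript, at the first exon of an annotated noncoding transcript. The last exon lay in intron 3 of the coding transcript, with an acceptor site that is not annotated. The model contained 317 of the 2580 coding bases (12.3%) and no annotated start codon.

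**Figure D2:**
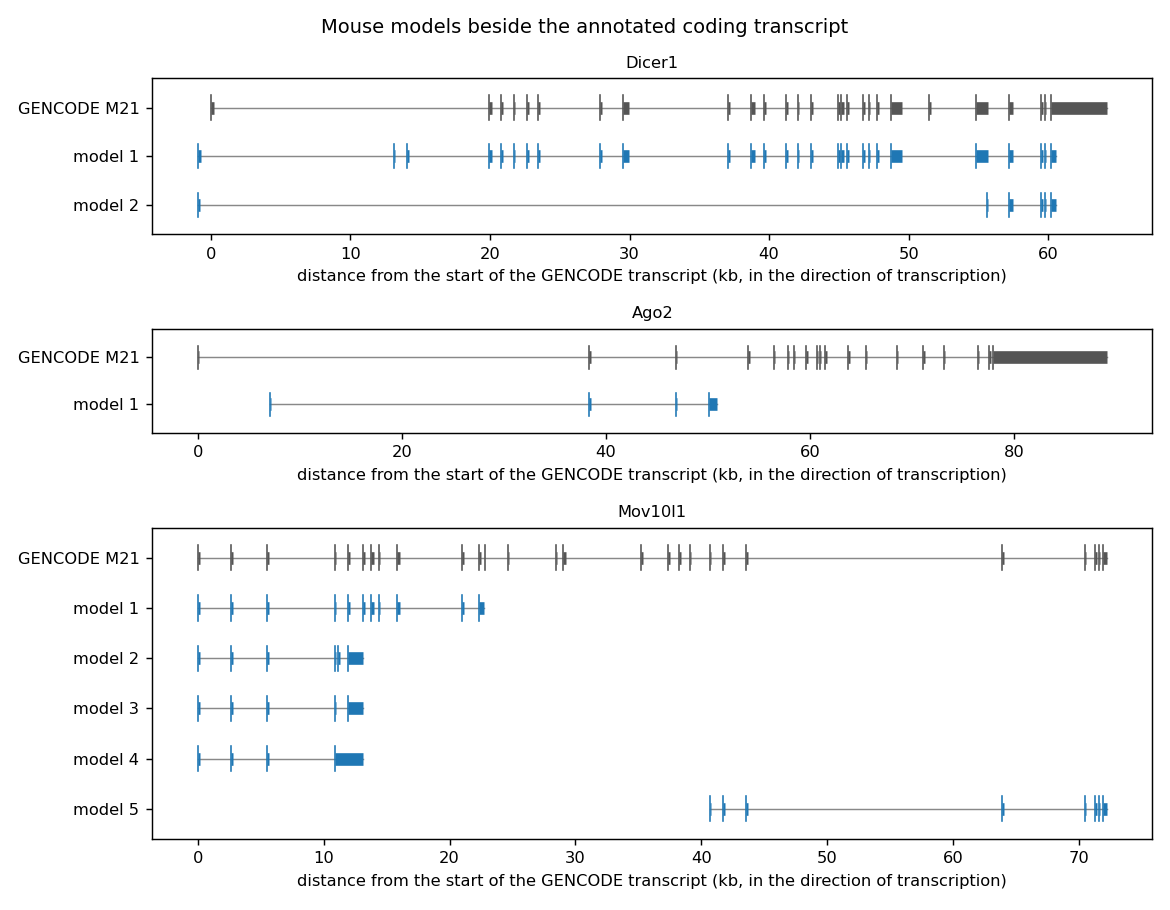
Exons (boxes) and introns (lines) of the mouse Dicer1, Ago2 and Mov10l1 models in blue beside the annotated coding transcript in grey, by distance from the start of the annotated transcript in kb in the direction of transcription (x axis). Both Dicer1 models begin upstream of it, the Ago2 model stops after 4 exons, and the Mov10l1 models leave 17.9 kb between them uncovered.

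The remaining mouse genes included the 3 with all codons of an annotated coding transcript. Piwil2, the PIWI protein MILI, had 2 exact matches of 23 exons (chr14, minus strand, 70372477 to 70429528 and to 70429108). They were 4971 bp and 4930 bp long, began 420 bp apart and both held all 971 codons. Mael, a germ granule protein needed for piRNA function, had 1 model of 12 exons and 1546 bp (chr1, minus strand, 166201385 to 166238744) with all 434 codons. Mov10, an RNA helicase that restricts retrotransposons and binds Argonaute proteins, had 1 model of 21 exons and 3464 bp (chr3, minus strand, 104794832 to 104818305) with the 1004-codon annotated frame. Of the longest annotated Mov10 frame, with 1077 codons, it contained 94.7% of the 3231 coding bases. A complete coding intron chain was thus present for 3 of 6 genes, beside 75.1% of 10882 mouse genes with a model and a spliced coding transcript.

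Mov10l1, the helicase that feeds piRNA precursors into processing, had no model of its whole length in either species. In mouse (chr15, plus strand), 4 models began at 88982898, 11 bp before the first GENCODE start of the gene, with 11, 6, 5 and 4 exons. The longest of these ended at 89005672 and the other 3 at 88996055, in last exons of 1215 to 2250 bp that run into introns. The 6-exon model included an unannotated 147-bp exon (88994072 to 88994218). A separate model of 8 exons covered the 3′ portion from 89023613 to 89055150, and it begins to the base at the start of an annotated 8-exon transcript of the gene. Between the 2 groups of models lay 17.9 kb without a model. Together the 5 models contained 71.3% of the 3717 coding bases and the best single model 46.4%, and 574 of 1239 codons could be read from the start codon in the 11-exon model. In bovine (chr5, plus strand), models of 16 and 9 exons began at 119477523 and a 4-exon model covered 119537410 to 119540289, with 4.16 kb between them. Genes whose models fell into stretches that do not overlap numbered 1 of 3 in mouse (5.6% of all genes with at least 2 models) and 2 of 7 in bovine, MOV10L1 and DICER1 (12.3% of all).

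DICER1 in bovine (chr21, minus strand) was likewise split. A 10-exon model ran from 60010858 to 59990758 and a 5-exon model from 60009852 to 59999254. A 16-exon model of 4722 bp covered the 3′ portion, from 59978216 to 59955557, and 12.5 kb lay between it and the 5′ models. This 3′ model included a 156-bp exon at the place of mouse exon 22. The bovine library therefore held the counterpart by length of the exon that the long mouse model lacked. No bovine model spanned the whole gene.

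AGO2 in bovine (chr14, plus strand) was assembled nearly whole and from several starts upstream of its exact match. The exact match began at 3100810 with 18 exons. Its first exon of 196 bp had the length of mouse exon 2, and its 16 internal exons those of mouse exons 3 to 18. By this comparison it held no counterpart of mouse exon 1. The distances below are therefore measured from the counterpart of an inner mouse exon. Of the other 4 models, all of 19 exons, 1 began at 3056071, 2 at 3059979 and 1 at 3060539, which are 44.7, 40.8 and 40.3 kb farther upstream. Their first exons were 67, 284 and 184 bp long and spliced into the first exon of the exact match at its start. In 3 of these 4 models all 17 internal exons had the lengths of mouse exons 2 to 18. The remaining model, starting at 3059979, had 1 internal exon of another length, 135 bp in place of 195 bp.

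TDRD5, a Tudor domain protein of germ granules that binds piRNA precursors, had the most models of the set (chr16, plus strand). Of its 10 models 7 shared a first exon of 98 bp at 60811876, which is 4.55 kb upstream of the exact match at 60816426. A further model began at 60815544, 0.882 kb upstream, with a first exon of 200 bp, and the last at 60816493. The exact match had 18 exons and 3590 bp, and the model of 18 exons and 3577 bp from the upstream start shared its end at 60895060. The other 8 models ended 12.6 to 72 kb earlier, in 7 of them with 5 to 7 exons from an upstream start. First exons outside the library's own exact matches were found for AGO2 and TDRD5, 2 of the 3 bovine genes that could be judged, beside 16.5% of 8273 genes. AGO2 counts here although its exact match opens with the counterpart by length of mouse exon 2. For the 3 mouse genes judged the same way the number was 0, beside 15.8% of 9233 genes.

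**Figure D3:**
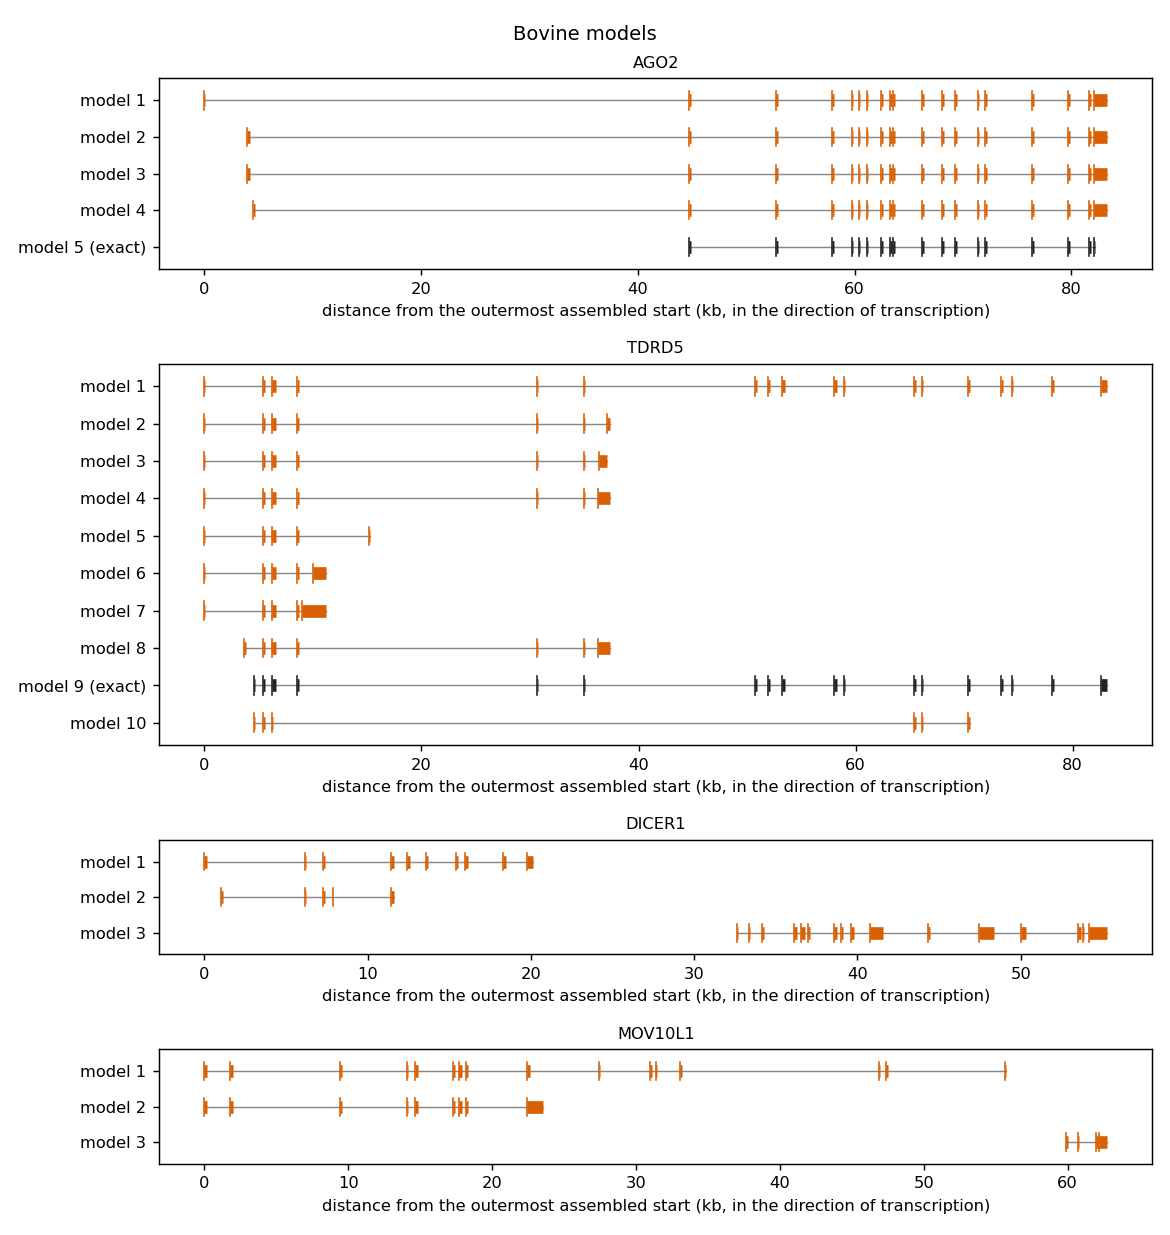
Exons (boxes) and introns (lines) of the bovine AGO2, TDRD5, DICER1 and MOV10L1 models, by distance from the outermost assembled start in kb in the direction of transcription (x axis), with exact matches in black. AGO2 and TDRD5 have first exons upstream of the exact match, most TDRD5 models end early, and the DICER1 and MOV10L1 models fall into 5′ and 3′ pieces.

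More PIWI genes had a model in the bovine library, and none of their bovine models was an exact match. PIWIL2 (chr8, plus strand) had 4 models from 69589159, with 22, 16, 14 and 10 exons, and a 2-exon model from 69663817. PIWIL1, the counterpart of mouse MIWI, had a 3′ model of 9 exons and 1833 bp (chr17, minus strand, 46727248 to 46740784). PIWIL3, a PIWI protein that mice lack and that is known from oocytes of other mammals, had 1 model of 21 exons and 2998 bp (chr17, minus strand, 64971202 to 64996532). It shared a junction with the reference transcript without matching its chain. The PIWI genes with a model were thus Piwil2 alone in mouse and PIWIL1, PIWIL2 and PIWIL3 in bovine.

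MAEL and MOV10 completed the bovine set. MAEL (chr3, minus strand) had 3 exact matches of 13, 12 and 11 exons and a 6-exon model that ended 33.8 kb short of the others. The 13-exon model began at 1901654 and the other 3 at 1886128, 15.5 kb downstream. The 11-exon model lacked the 42-bp exon, as does the mouse reference transcript of 420 codons, while the single mouse model included it. MOV10 (chr3, minus strand) had only 3′ models of 5 and 4 exons, from 30626188 and 30626109 to 30623765. The mouse Mov10 model, with a complete annotated frame, thus had no full bovine counterpart.

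The exon lengths of the bovine models were set beside those of the mouse coding transcript of the same symbol, a measure the choice of genes did not use. Internal exons were called equal when they had the same length to the base in the same order, and the model named for each gene is the one with the most equal exons. All 10 internal exons of the 12-exon MAEL model were equal, and all 7 of the PIWIL1 model, which matched mouse exons 15 to 21. The 22-exon PIWIL2 model had 18 of 20 equal (90%), and the 16-exon DICER1 model 12 of 14 (85.7%). Shorter models of these genes had lower shares, 5 of 8 (62.5%) in the 10-exon DICER1 model and 75% in the 14-exon and 10-exon PIWIL2 models. Among the other genes, shares were 75% or less in the 18-exon TDRD5 models, with 12 of 16 (75%), and in the 16-exon MOV10L1 model, with 9 of 14 (64.3%). At least 80% equal exons were found for 5 of the 7 genes with at least 5 internal exons and a mouse counterpart, beside 84% of 6177 genes whose median share was 94.3%. With no mouse Piwil3 to compare, the PIWIL3 model had 12 of 19 internal exons equal to those of mouse Piwil1, 11 of 19 to those of Piwil4 and 1 of 19 to those of Piwil2. The PIWIL1 model had 6 of 7 equal to those of Piwil4 and 0 of 7 to those of Piwil2. These models therefore shared exon lengths with mouse Piwil1 and Piwil4 and hardly any with Piwil2.

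**Figure D4:**
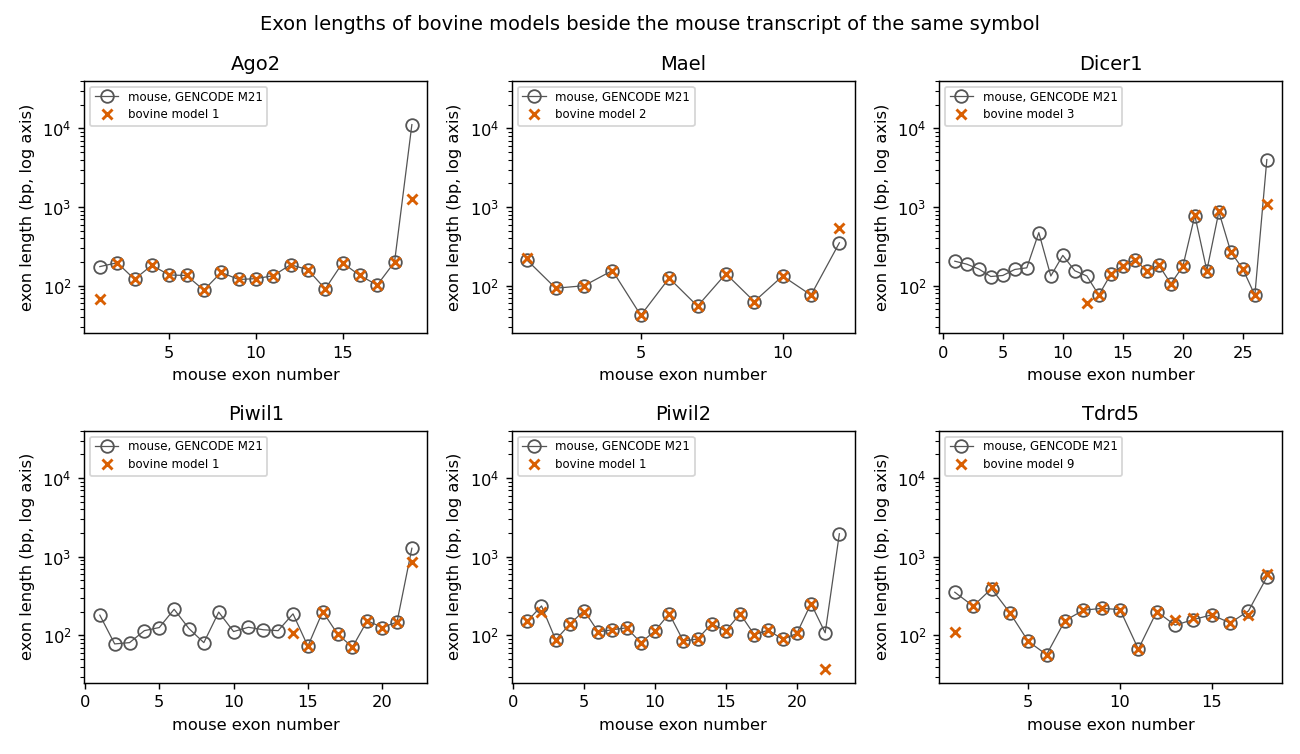
Exon length in bp on a log axis (y) by mouse exon number (x) for 6 genes, with the mouse GENCODE transcript as circles and the bovine model that follows it as crosses. Internal exons of AGO2, MAEL and PIWIL1 coincide with mouse exons, and first and last exons differ. TDRD5, placed by exon number, departs from the mouse lengths at internal exons 2, 3, 13, 14 and 17. Matching in order, which can shift an exon, gave 12 of 16 equal.

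Models on the opposite strand were found under some of these names and were not counted among the models above. In mouse, 2 models on the plus strand (chr3, 104809186 to 104810823), spliced at 1221 bp and unspliced at 1638 bp, lay within the 12828-bp intron 2 of Mov10. In bovine, a 2-exon plus-strand model of 670 bp (chr3, 30650108 to 30651355) lay in an intron of the MOV10 reference, 23.9 kb from the start of the outermost sense model. Such a model was found for 1 of 6 assembled mouse genes (6.63% of all) and 1 of 9 bovine genes (2.81% of all). Mouse Tdrd5, which had no sense model, carried a single-exon plus-strand model of 357 bp in its intron 9 (chr1, 156283044 to 156283400). A bovine minus-strand model with 8 exons lay over AGO2 (chr14, 3118542 to 3128121), and its 7 introns all matched sense introns within 10 bp. The origin of that model was not tested.

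Assembled starts were compared with RefSeq promoter windows (GRCm38.p6, 250 bases before to 50 after a gene's start), of which 7 of the 10 genes had 9, with a pair each for Mov10 and Piwil4. The mouse Mael and Mov10 models began at a RefSeq start to the base, 4 of the 5 Mov10l1 models 96 bp upstream of theirs and the Dicer1 models 940 bp upstream. Windows were searched on both strands for an E-box (CACGTG), an E2F site (TTCCCGCC), a cyclic AMP response element (TGACGTCA), an SP1 site (GGGGCGGGG) and a TATA box (TATAAA), none of which contains another. An E-box was found in the windows of Mael, Mov10l1 and Piwil1, 3 of the 9 windows, and in 7.15% of all 32851 windows. The shares of all windows with the other motifs were 2.19% for E2F, 1.79% for the cyclic AMP response element, 11.4% for SP1 and 13.6% for TATA. Among the genes an SP1 match was found for Piwil1 and a TATA match for Piwil4, and neither gene was assembled in mouse. A match of letters is a description and does not show that a factor binds. CpG pairs per window numbered 49 for Dicer1, 48 for Tdrd5, 24 for Mael, 20 for Mov10l1, 18 for Piwil1, 13 and 9 for the windows of Mov10, and 11 and 0 for those of Piwil4, beside a median of 7 over all windows. The E-box letters themselves hold a CpG, and its share among windows of like CpG number was not computed. The 7.15% of all windows is therefore not a like background for these genes. The windows of Mael (chr1:166238695-166238994, minus strand) and Mov10l1 (chr15:88982744-88983043, plus strand) are shown because they hold an E-box, in capitals, and lie at assembled starts.
Mael promoter: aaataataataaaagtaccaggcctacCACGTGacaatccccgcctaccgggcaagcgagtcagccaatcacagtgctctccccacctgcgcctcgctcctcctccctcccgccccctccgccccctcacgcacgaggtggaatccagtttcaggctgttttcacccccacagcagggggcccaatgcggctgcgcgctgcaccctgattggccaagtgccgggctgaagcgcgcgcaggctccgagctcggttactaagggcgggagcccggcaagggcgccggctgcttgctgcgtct
Mov10l1 promoter: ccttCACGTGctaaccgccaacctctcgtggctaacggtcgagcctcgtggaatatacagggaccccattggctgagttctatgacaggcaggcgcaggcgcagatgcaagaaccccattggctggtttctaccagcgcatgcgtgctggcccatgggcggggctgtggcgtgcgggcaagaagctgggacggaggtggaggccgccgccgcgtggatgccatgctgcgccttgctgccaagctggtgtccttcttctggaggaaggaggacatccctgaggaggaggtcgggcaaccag

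Other genes of the same pathways were assembled in large part. Of 23 further microRNA and small interfering RNA genes, 22 had a model in mouse, with a median of 3 models per assembled gene, and 19 in bovine, with a median of 4. Of 25 further piRNA and germ granule genes, 24 had a model in mouse and 17 in bovine, both with a median of 3. Of all mouse protein-coding genes 52.2% had a model, and no such share was computed for bovine. The median over all genes with a model was 2 in either library. An exact match was held by 14 of the 22 and 17 of the 24 assembled mouse genes, beside 72.5% of all mouse genes with a model. In bovine it was held by 11 of 19 and 12 of 17, beside 65.5% of all. Under current symbols Tarbp2, the double-stranded RNA partner of Dicer, had the most models of these genes in both libraries, 9 in mouse and 7 in bovine. In mouse it was followed by Gtsf1, a PIWI cofactor, and Tdrd3 with 7 each, Tut1, a terminal uridylyltransferase, with 6, and Ago3, Pnldc1, Tdrkh, Rnf17 and Prmt5 with 5 each. In bovine SND1, a Tudor and nuclease domain protein, had 6 models, and DROSHA, ADAR, TNRC6A, TNRC6B, DDX4, PNLDC1, TDRD7 and PRMT5 had 5 each.

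Genes of the lists assembled in mouse alone were Lin28b, Tut1, Tut4, Tut7, Asz1, Gtsf1l, Gtsf2, Tdrd12, Stk31, Btbd18 and Spocd1, and Ago1 was the one assembled in bovine alone. Older symbols change this for the uridylyltransferases Tut4 and Tut7, since ZCCHC11 had 2 bovine models and ZCCHC6 had 10, more than TARBP2. The direction thus differed from that of the 10 genes, 3 of which were assembled in bovine alone and none in mouse alone. One of the 3, Piwil3, is a gene that mice lack, which leaves Piwil1 and Tdrd5. No contrast between the lists and the 10 genes was tested. Mouse genes with an unannotated first exon were Dgcr8, Ago3, Ago4, Tnrc6a, Tnrc6b, Tnrc6c and Tut1, 7 of the 22 assembled, and Tdrd3, Prmt5, Tdrd12, Stk31 and Exd1, 5 of 24, beside 17.2% of all mouse genes with a spliced model. Tdrd3 and Prmt5 had 3 such models each. In bovine no annotation was read, and the measure was another one, a first exon outside the library's own exact matches. Only genes with an exact match could be judged. Such a first exon was held by DROSHA, TARBP2, TNRC6A, SND1 and DDX6, 5 of 11 microRNA and small interfering RNA genes. For piRNA genes the count was 0 of 12, beside 16.5% of all genes judged.

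**Figure D5:**
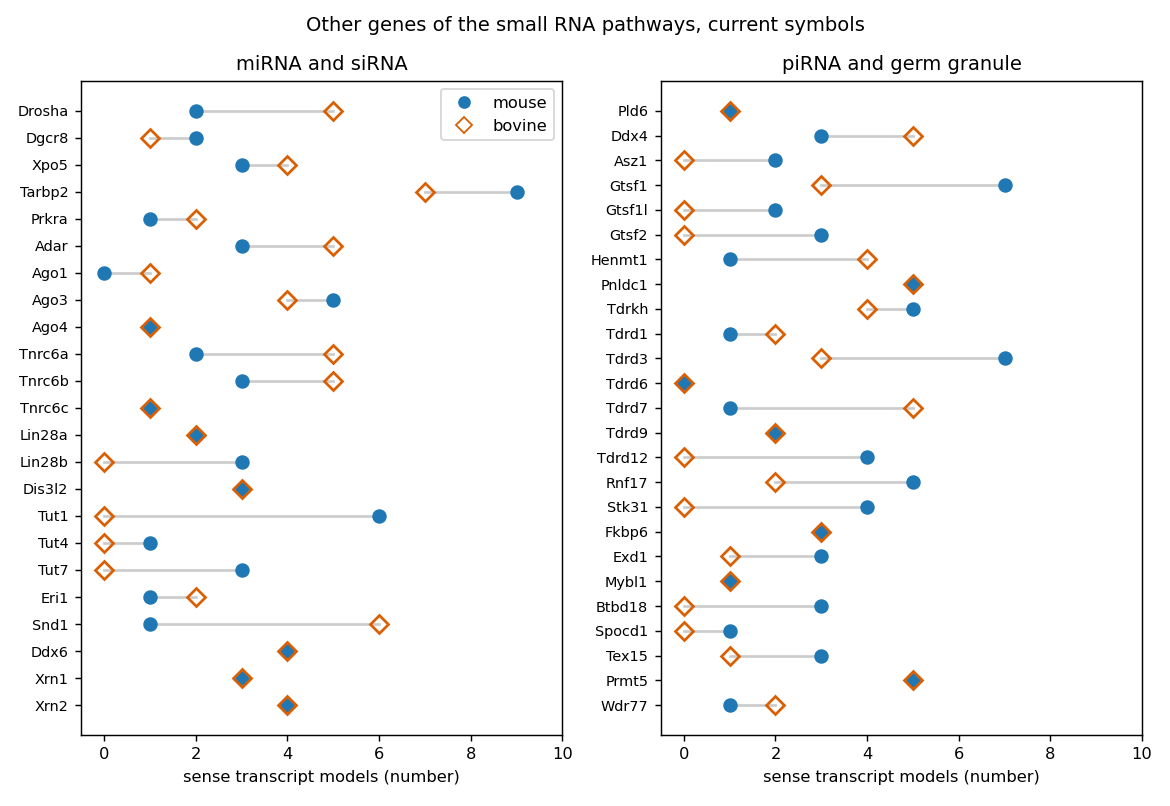
Number of sense models (x axis) of each further gene of the microRNA and small interfering RNA list and of the piRNA and germ granule list (y axis), in mouse (filled circles) and bovine (open diamonds), under current symbols. Most genes were assembled in both libraries, and 7 piRNA genes, among them Stk31 with 4 models and Tdrd12 with 4, were assembled in mouse alone.

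Marker genes were read for the labelled stages and for other cells that embryo pools can hold. All 8 germ line and oocyte genes looked for had a model in both libraries, and 8 of 8 genes of the mouse 2-cell burst and 8 of 8 bovine activation genes had one in their own species. In the other species, 3 of the 8 bovine activation genes had a model in mouse and 0 of the 8 burst genes in bovine. Of all mouse protein-coding genes 52.2% had a model. The lists were written with earlier results of these data known, so these counts do not test the stage labels. Of 8 sperm genes 3 were assembled in mouse, with 7 models, and 4 in bovine, with 11, and Prm1, Akap4 and Gapdhs in neither. Ldhc alone gave 5 of these mouse models and 8 of the bovine ones. The other sperm genes with a model were Prm2 and Tnp1 in mouse and TNP1, TNP2 and ODF1 in bovine, with 1 each. Of 10 cumulus and granulosa genes 4 were assembled in mouse, with 5 models, and 5 in bovine, with 11, and Ptx3, Amh and Cyp19a1 in neither. In mouse Tnfaip6 had 2 models and Fshr, Inhba and Star had 1 each. In bovine HAS2, TNFAIP6 and VCAN had 3 models each, and FOXL2 and STAR had 1 each. The part of sperm, cumulus and granulosa cells in the models of the 10 small RNA pathway genes was not tested.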

How the data were processed

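The labels' protocols state that total RNA was extracted with TRIzol, turned into cDNA and amplified with 14 PCR cycles (cDNA-PCR kit). They also state that each library was sequenced on its own R10.4.1 flow cell. Both libraries are listed here as batch 1, although their flow cells differ. The authors deposited 1 set of transcript models per library as exon start and end positions, with gene name, closest reference transcript and class code, per the file attributes, and no abundance. Genome builds were mm10 and bosTau9, per the submitters' processing notes. Not given in the sources used here: aligner, assembly settings and versions.

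Models with class code =, c, k, m, n, j or o were kept (Python 3.11.15). Starts within 50 bp were grouped, giving 8 start groups in mouse and 21 in bovine. Mouse models were compared with GENCODE M21 after a check that 68.4% of 16388 exact spliced matches (exact Clopper-Pearson 95% interval 67.7% to 69.1%, scipy 1.17.1, counting error only) had an identical intron chain there. In mouse, annotated means held by GENCODE M21 or, for first exons, also by the library's exact matches. RefSeq transcripts were not read. Transcripts with partial coding sequence were left out of coding comparisons. Structure comparisons were tested on simulated models. For bovine, neither genome nor annotation was used here. The genes and lists were chosen with earlier results of these data known. All 10 genes are named; of the pathway lists, the 5 with most models per library, with ties, those with an unannotated first exon and those assembled in 1 library alone. Other class codes, older symbols and other windows and tolerances were tried as alternatives.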

Additional observations from a re-analysis of the deposited data

How the results depend on the processing

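With exact matches alone, the models of the 10 genes fell from 12 to 4 in mouse and from 34 to 5 in bovine, the genes assembled from 6 to 3 and from 9 to 3, and the bovine pathway genes from 36 to 23, since fewer models enter. With the library's exact matches as the annotation, the mouse genes with an unannotated first exon fell from 1 to 0, because Dicer1 has no exact match and is not judged. The other settings kept each of these counts within 1.5 times. Of 120 values of single genes, 101 were equal to the main value, 5 changed by at most 1.5 times and 14 changed by more. Lengths equal within 3 bp, chosen after seeing the data, gave 7 genes in place of 5. No paired analysis was possible because each species has 1 library and no test was made. Depth is unknown, and the ends of models may follow cDNA length or the assembler.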
